A study of Mus musculus with 11 samples.

Results

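Il2ra, Il2rb, Il2rg, Il7r, Il4ra, Il21r and Il15ra encode chains of the receptors that share the common gamma chain. They were taken by their gene symbols from a table of 14604 genes, and all 7 were found. The rule used symbols only, but the genes were chosen with earlier results of these data known. All 7 also passed the filter on low values, which kept the 13897 genes whose log2(n + 1) averaged 0.5 or more.

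The table holds Tregs sorted from MC38 tumors (TI-Tregs) and from the spleens of the same tumor-bearing mice, in 11 libraries. The mice had been implanted with MC38, a line of murine colon adenocarcinoma cells. Both genotypes carried floxed Cd177 alleles: 3 spleen and 3 tumor libraries came from CD177flox/flox mice, called wild type here, and 3 spleen and 2 tumor libraries from CD177flox/flox/FOXP3-CreYFP mice, called knockout here, in which Cre is driven by Foxp3 and so acts in Foxp3-expressing cells. No drug treatment, age or sex of the mice is given in the labels. Cd177 is not listed in the table, so the knockout could not be checked from its own gene. Live cells positive for CD4, GITR and CD25 were sorted from both tissues. CD25 is the protein of Il2ra, so every library comes from cells chosen for the protein of 1 of the 7 genes.

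IL-2, IL-4, IL-7, IL-9, IL-15 and IL-21 signal through receptors that include the common gamma chain, the product of Il2rg. JAK3 binds this chain, JAK1 binds the partner chain, and STAT5, STAT6 or STAT3 carries the signal to the nucleus. Tregs depend on IL-2 from other cells and hold much CD25, which with IL-2Rβ and the gamma chain forms the high-affinity IL-2 receptor, whereas resting Tregs are known for low IL-7 receptor.

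The values are log2(n + 1), where n is the authors' abundance estimate per gene symbol. How n was scaled between libraries is not stated, and this matters here: n summed to between 712832 and 844331 in spleen libraries and to between 1103159 and 1304548 in tumor libraries. The study's methods give an approximate read depth per library, but the number of reads behind a value of n is unknown. Precision is therefore set by how far libraries of a tissue differ. Means are given ± SD, over 6 spleen or 5 tumor libraries unless another n is stated. Nothing in the labels says that libraries of a group came from separate mice, so p-values measure the spread between these libraries. In bulk samples, fewer cells of a type and less RNA per cell cannot be told apart.

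The sorted samples were also checked against marker lists. All 16 T cell lineage genes were detected in each tissue, but 13 were lower in tumor and 3, Cd3g, Cd2 and Thy1, were not called (median difference of the list -0.71). Foxp3, the lineage factor of Tregs, was 6.35 ± 0.30 in spleen and 5.50 ± 0.55 in tumor. Of 9 listed genes of Treg identity and the sort, 4 were higher and 5 lower in tumor, with Tnfrsf18, the gene of GITR, higher by 1.08. All 18 myeloid markers rose in tumor, and their summed n went from 329–638 in spleen libraries to 13984–20080 in tumor libraries. Summed n of 5 fibroblast genes was 2.49–3.41 in spleen and 458–982 in tumor libraries (4 genes higher, 1 not called). That of 10 genes of CD8 T and NK cells was 44.3–87.5 and 134–495. Of these 10, 6 were higher, 1 was lower (Klrb1c, -1.39) and 3 were not called (Ncr1, Eomes and Gzma). Summed n of 6 B cell genes was 18.4–62.2 in spleen and 14.6–25.2 in tumor (1 gene higher, 3 lower, 2 not called). The part of these other cells in the results that follow was not tested. Myeloid cells also use several of these receptors, Il4ra among them.

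Short stretches near 4 start sites are shown first, because STATs, FOXO1 and ETS factors are known regulators of cytokine receptor genes. Promoters (250 bases before to 50 after a RefSeq start site, GRCm38.p6) were found for 6 of the 7 genes, in 7 windows. They were searched on both strands for a STAT motif (TTCNNNGAA), a FOXO motif (GTAAACA) and an ETS motif (CCGGAAG), and no match overlapped another. Capitals mark the match, with 10 bases on each side:
Il7r, STAT, chr15:9530000-9530028, minus strand: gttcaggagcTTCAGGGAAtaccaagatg
Il21r, FOXO, chr7:125603381-125603407, plus strand: ggcggggcacTGTTTACcacatcccct
Il15ra, ETS, chr2:11705179-11705205, plus strand: aaaggtacagCCGGAAGaaggcaaagt
Il2rg, ETS, chrX:101268256-101268282, minus strand: gttctttccaCCGGAAGctacgacaaa
The match begins 142 bases before the RefSeq start site in Il7r, 38 in Il21r, 104 in Il15ra and 17 in Il2rg. The Il7r stretch lies inside the Il7r gene as annotated in GENCODE M21 (chr15:9505788-9530176), so it is upstream of the RefSeq start site only. The Il21r match reads as the reverse complement of GTAAACA. Of all 32851 promoters of this length, 8.30% held the STAT motif, 3.65% the FOXO motif and 8.86% the ETS motif. These matches are letters in a window and not measured binding.

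The genes lie at 5 loci of GRCm38 (mm10, GENCODE M21). Il2ra (chr2:11642807-11693193, plus strand) and Il15ra (chr2:11705290-11734317, plus strand) are neighbors with 12.1 kb and no annotated gene between them. Il4ra (chr7:125552120-125579474, plus strand) and Il21r (chr7:125603429-125633570, plus strand) are likewise separated by 24.0 kb that hold no gene. Il7r (chr15:9505788-9530176, minus strand) and Il2rb (chr15:78479256-78495271, minus strand) lie far apart on chromosome 15, and Il2rg (chrX:101264378-101268255, minus strand) is X-linked. Exons of Il2rg overlap those of Gm20489 on the same strand, and exons of Il4ra overlap those of the antisense gene Gm44876. Neither of these overlapping genes has a row in the table, and strand use is not stated, so reads could not be divided between them.

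**Figure D1:**
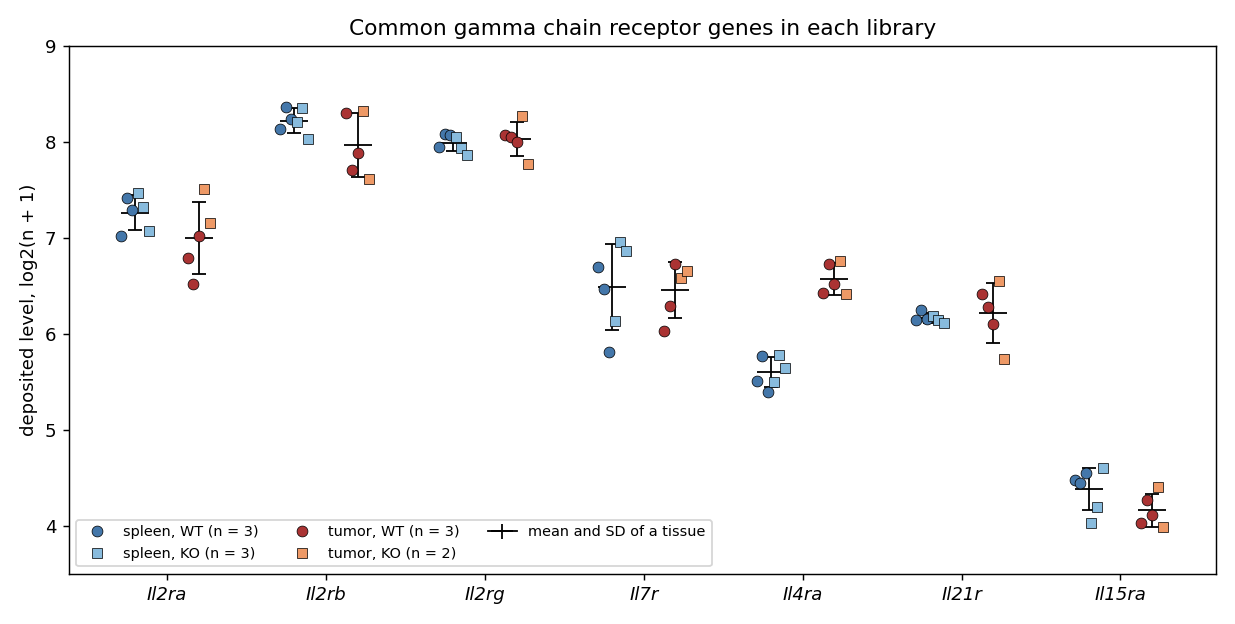
Deposited level, log2(n + 1), of the 7 receptor genes in each of 11 libraries, with the mean and SD of 6 spleen and 5 tumor libraries. Il4ra is the gene whose tumor libraries (6.42 to 6.76) all lie above its spleen libraries (5.39 to 5.78), and the other 6 overlap.

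Levels of different genes were set side by side per kilobase of the longest coding transcript. In spleen, Il2rg had the highest level, 152 ± 9.5 n per kb, followed by Il2rb with 71.2 ± 6.3. Il2ra had 34.8 ± 4.3, Il21r 28.3 ± 0.98 and Il7r 26.0 ± 7.5 n per kb. Il15ra with 10.4 ± 1.6 and Il4ra with 9.06 ± 1.0 n per kb came last. The libraries of neighbors in this order overlapped between Il2ra and Il21r, between Il21r and Il7r, and between Il15ra and Il4ra, so these neighbors were not separated by their spread. In tumor, Il2rg (157 ± 19 n per kb) and Il2rb (60.7 ± 14) again came first. Il21r (29.9 ± 6.2), Il2ra (29.5 ± 7.8) and Il7r (24.9 ± 4.8 n per kb) overlapped one another in turn. Il4ra stood 6th with 18.0 ± 2.1, overlapping Il7r, and Il15ra last with 8.77 ± 1.1 n per kb. Thus, per kilobase, Il4ra and Il15ra overlapped in spleen, while every tumor library of Il4ra was above every tumor library of Il15ra. Whether n was already corrected for length is not stated. Over 13728 genes the level fell slightly with transcript length (Spearman correlation -0.14 in spleen and -0.19 in tumor). The division per kilobase may therefore correct for length again, and in that case the order on n itself applies. On n, Il2rb, Il2rg and Il2ra led in spleen, and Il2rg, Il2rb and Il2ra led in tumor. Il4ra stood 6th in spleen and 4th in tumor, with every library above every Il15ra library of the same tissue.

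Tumor was compared with spleen to ask which receptor genes differ between TI-Tregs and splenic Tregs. As deposited, 1 of the 7 genes was called, against 78.9% of all tested genes (43.1% higher and 35.9% lower; limma, Benjamini-Hochberg adjusted p below 0.05). The median size of the difference, sign aside, was 0.22 over the 7 genes and 0.67 over all tested genes, both on the log2(n + 1) scale. Groups without overlap between tissues were found for 1 of the 7 genes and for 63.5% of all tested genes.

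Il4ra, the chain that binds IL-4 and that pairs with the gamma chain or with IL-13Rα1, was higher in tumor. In spleen its log2(n + 1) was 5.50, 5.77 and 5.39 in wild-type libraries and 5.50, 5.78 and 5.64 in knockout libraries. In tumor it was 6.42, 6.73 and 6.52 in wild-type libraries and 6.76 and 6.42 in knockout libraries. Every tumor library was above every spleen library, in both genotypes. The mean went from 5.60 ± 0.16 to 6.57 ± 0.17, a difference of 0.97 (SE 0.093; 95% interval 0.77 to 1.17) or 1.96-fold on this scale, with an adjusted p of 5.96e-07 from limma. An exact two-sided permutation test gave p = 0.0043, the smallest that 6 libraries against 5 allow. By size, the difference ranked 4717 among 13897 genes. Exons shared with Gm44876 leave its values uncertain to that extent, and all 18 myeloid markers rose in the same libraries.

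The gamma chain itself, Il2rg, was 7.99 ± 0.09 in spleen and 8.03 ± 0.18 in tumor. The difference was 0.04 (95% interval -0.14 to 0.22, adjusted p = 0.67 from limma). Its spleen libraries lay between 7.86 and 8.08, inside the span of the tumor libraries, 7.77 to 8.27.

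The IL-2 receptor alpha chain, Il2ra, was 7.02, 7.41 and 7.29 in wild-type and 7.46, 7.32 and 7.07 in knockout spleen libraries. In tumor it was 6.79, 6.51 and 7.02 in wild-type libraries and 7.51 and 7.15 in knockout libraries. The tumor libraries thus held both the lowest and the highest value of all 11. The means were 7.26 ± 0.18 in spleen and 7.0 ± 0.38 in tumor, a difference of -0.27 (95% interval -0.59 to 0.06) that was not called (adjusted p = 0.12, limma).

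Il2rb, the signaling chain shared by the IL-2 and IL-15 receptors, was 8.14, 8.36 and 8.24 in wild-type and 8.21, 8.36 and 8.03 in knockout spleen libraries. The tumor libraries had 8.30, 7.71 and 7.89 in wild type and 8.32 and 7.61 in knockout, so that 3 lay below all spleen libraries and the other 2 within them. The difference was -0.26 (SE 0.13; 95% interval -0.54 to 0.03; adjusted p = 0.088, limma).

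Il15ra, whose product presents and binds IL-15, had the lowest log2(n + 1) of the 7 genes. It was 4.38 ± 0.22 in spleen and 4.16 ± 0.17 in tumor. All 5 tumor libraries lay below the spleen median of 4.46, but 4 of them within the spleen span, from 4.03 up. The difference of -0.22 (95% interval -0.47 to 0.03) was not called (adjusted p = 0.094, limma).

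Il7r, the IL-7 receptor alpha chain, also part of the TSLP receptor, varied most between spleen libraries. They had 6.69, 6.47 and 5.81 in wild type and 6.14, 6.96 and 6.86 in knockout, a span of 1.15. The tumor libraries had 6.03, 6.29 and 6.72 in wild type and 6.58 and 6.65 in knockout, all within the spleen span. The difference was -0.03, and its 95% interval of -0.47 to 0.41 was the widest of the 7 genes (adjusted p = 0.89, limma).

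Il21r, the specific chain of the IL-21 receptor, was the tightest of the 7 genes in spleen, where all 6 libraries lay between 6.11 and 6.25. In tumor the libraries had 6.41, 6.28 and 6.10 in wild type and 6.55 and 5.74 in knockout. So 3 were above and 2 below all spleen libraries, and the means differed by 0.05 (95% interval -0.20 to 0.31; adjusted p = 0.70, limma). Il4ra, its neighbor on chromosome 7, differed by 0.97. Il2ra and Il15ra, the neighbors on chromosome 2, differed by -0.27 and -0.22.

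Tumor libraries spread together in several of these genes. Knockout tumor replicate 1 was the highest tumor library for 6 of the 7 genes, and knockout tumor replicate 2 the lowest for 5. Without knockout tumor replicate 1, the called genes went from 1 to 4: Il2ra (-0.40), Il2rb (-0.34) and Il15ra (-0.28) then passed the threshold as lower in tumor. In that fit 10978 of the 13897 tested genes were called. Il2rb also passed without wild-type tumor replicate 1 (-0.34), and Il15ra without knockout spleen replicate 1 (-0.29), giving 2 called genes each time. Of all tested genes, 10912 and 10715 were called in these 2 fits. Il4ra was called in each of the 11 fits, with differences from 0.93 to 1.01.

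The scaling decided the direction of the 6 other genes. With equal library totals or quantile normalization, Il4ra was higher (0.35 and 0.58) and the 6 others were called lower. With median centring, Il2ra, Il2rb and Il15ra were called lower and Il4ra higher (0.76). With each library centred on the 16 T cell lineage genes, which were themselves lower in tumor, all 7 genes were called higher, Il4ra by 1.79. Of the 13897 tested genes, 10971 were called as deposited, 11103 with equal totals and 10984 with quantile normalization. Median centring called 11050 and T cell lineage centring 10849. These scalings also moved the median of all tested genes, from 0.08 as deposited to -0.43 with equal totals and 0.90 with T cell lineage centring. Set against that median, Il4ra stood 0.74 to 0.89 above it under the 6 scalings tried, 5 beside the deposited one. Median centring and T cell lineage centring shift all genes of a library alike. They therefore leave this relative value as it is in the deposited data (0.89), by construction, and are no separate check of it. The other genes stood below the median of all tested genes. Their relative values ran from -0.91 to -0.34 for Il2rb, from -0.77 to -0.35 for Il2ra and from -0.38 to -0.30 for Il15ra. They ran from -0.62 to -0.04 for Il2rg, from -0.38 to -0.11 for Il7r and from -0.21 to -0.03 for Il21r.

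**Figure D2:**
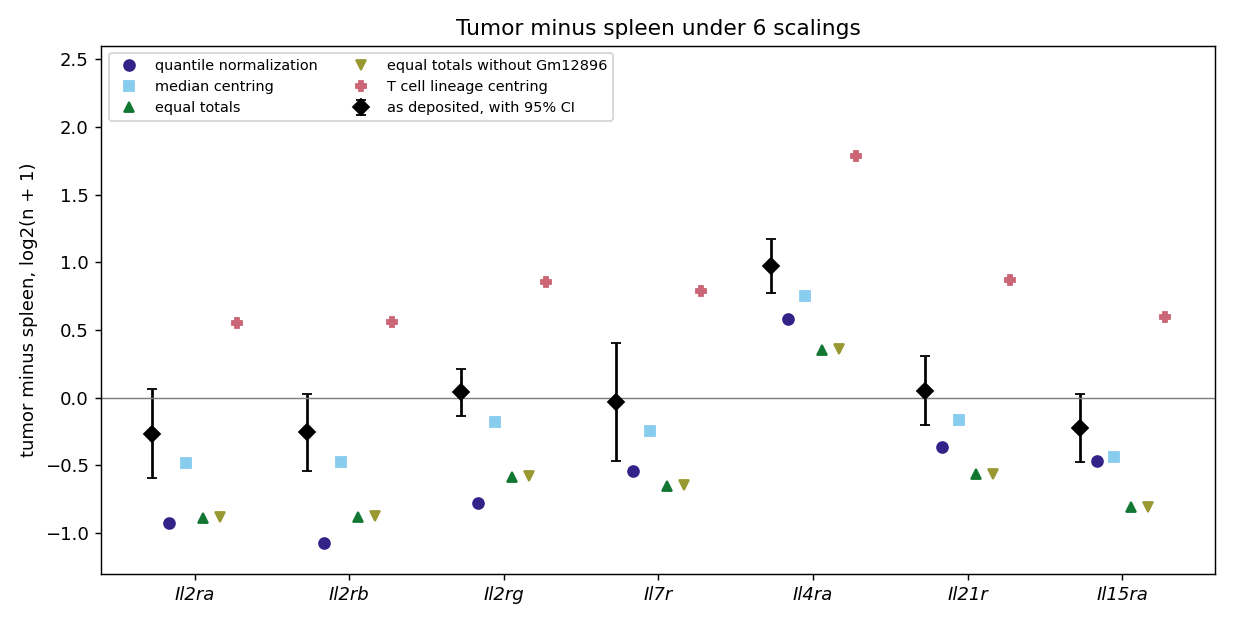
Tumor minus spleen, log2(n + 1), for each gene as deposited (diamonds with 95% interval) and under 5 other scalings. Il4ra stays above 0 throughout, from 0.35 to 1.79, while the 6 other genes lie below 0 with equal totals and above 0 with T cell lineage centring.

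Differences within a library, in which a common factor nearly cancels, were compared for 9 pairs of chains by exact two-sided permutation tests, with adjustment over the 9. Il4ra minus Il2rg was -2.39 ± 0.20 in spleen and -1.46 ± 0.13 in tumor. Spleen libraries ranged from -2.68 to -2.15 and tumor libraries from -1.65 to -1.32, without overlap (difference 0.93, exact p = 0.0043, adjusted p = 0.039). With 1 library left out, the difference lay between 0.88 and 0.98. Its adjusted p stayed under the threshold without knockout spleen replicate 1 (0.036) or wild-type tumor replicate 1 (0.043), where a further pair was called beside it. It was 0.071 or 0.086 without any other library, which is the least it can be there when no other pair is called.

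Il2rb minus Il2rg fell from 0.23 ± 0.11 to -0.06 ± 0.22, a difference of -0.30 whose adjusted p missed the threshold (exact p = 0.022, adjusted p = 0.097). Il15ra minus Il2rg differed by -0.26 (exact p = 0.061, adjusted p = 0.18) and Il2ra minus Il2rg by -0.31 (exact p = 0.11, adjusted p = 0.24). Within the IL-2 receptor, Il2ra minus Il2rb was -0.96 ± 0.12 in spleen and -0.97 ± 0.40 in tumor (difference -0.01, exact p = 0.97). Il2ra minus Il7r, the contrast of the receptors that mark Tregs and resting conventional T cells, was 0.78 ± 0.55 and 0.54 ± 0.30 (exact p = 0.42). Il21r minus Il2rg, Il7r minus Il2rg and Il15ra minus Il2rb differed by 0.01, -0.07 and 0.03.

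A pair of neighboring genes was looked at after the values were seen. Il4ra minus Il21r went from -0.57 ± 0.15 to 0.35 ± 0.26 without overlap of the tissues (exact p = 0.0043). These values were used without dividing by length, and whether n already holds a length correction is not stated. Divided per kilobase, the tumor libraries of Il4ra (16.1 to 20.5) lay below those of Il21r (20.9 to 37.1). Il2ra minus Il15ra was 2.88 ± 0.37 and 2.84 ± 0.37 (exact p = 0.84).

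**Figure D3:**
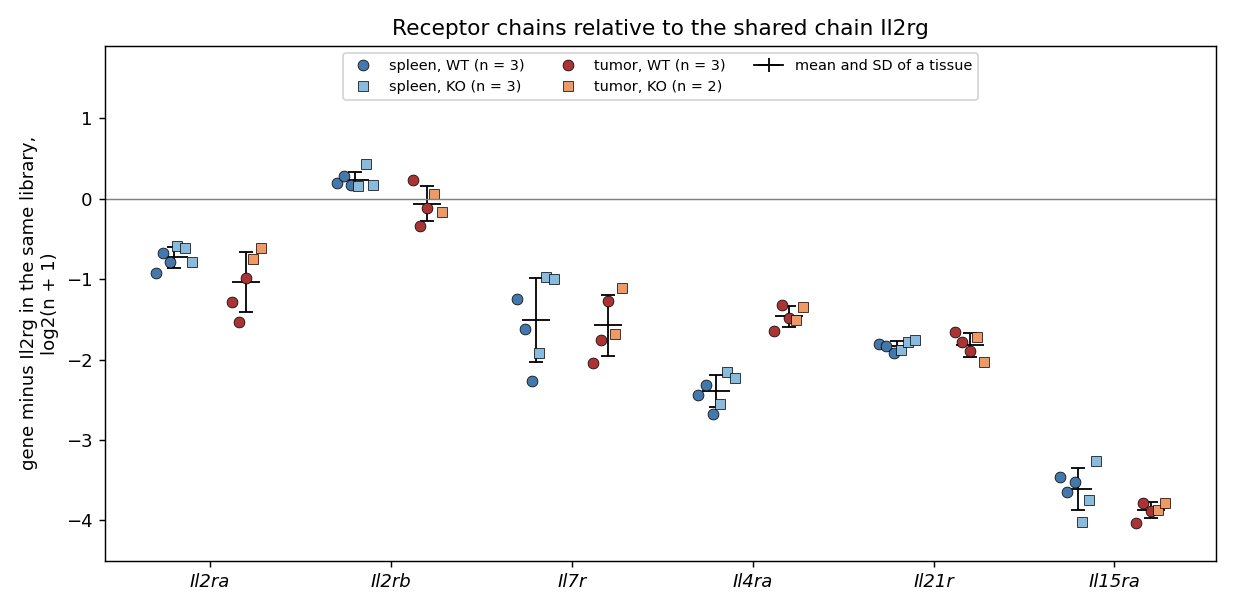
Each receptor gene minus Il2rg in the same library, log2(n + 1), with the mean and SD of 6 spleen and 5 tumor libraries. Il4ra shows no overlap (-2.68 to -2.15 in spleen, -1.65 to -1.32 in tumor), and the 5 other genes overlap.

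Within wild-type mice, Il4ra (difference 1.003, adjusted p = 6.68e-05) and Il2ra (-0.47, SE 0.16, adjusted p = 0.023, limma) were called, 2 of 7 genes against 70.5% of all tested genes. The 3 wild-type tumor libraries of Il2ra, at most 7.015, lay just below the 3 wild-type spleen libraries, at least 7.017. This call was lost without wild-type spleen replicate 2, wild-type spleen replicate 3 or wild-type tumor replicate 2, and with T cell lineage centring the difference was 0.31 (adjusted p = 0.22). Il15ra (-0.35, adjusted p = 0.065 with all libraries, limma) was called as well without knockout spleen replicate 3. That fit called 3 of the 7 genes and 9608 of all tested genes. Within knockout mice, Il4ra alone was called (0.95, adjusted p = 0.00027, limma), against 65.7% of all tested genes, and Il2ra differed by 0.05 (95% interval -0.35 to 0.45). Its tumor side rests on 2 libraries that lay far apart. Without knockout tumor replicate 1, differences included 0.78 for Il4ra, -0.59 for Il2rb and -0.41 for Il21r. Without knockout tumor replicate 2 they included 1.12 for Il4ra, 0.32 for Il2rg and 0.40 for Il21r, now higher in tumor. In these fits the lone tumor library is assumed to vary like the other groups. With equal totals the Il4ra difference was 0.40 in wild type (adjusted p = 0.058) and 0.32 in knockout (adjusted p = 0.16), and it then passed the threshold in the pooled comparison but in neither genotype. Bonferroni correction likewise left Il4ra called between tissues (adjusted p = 0.0019, limma) and none of the 7 genes within a genotype. Of all 13897 tested genes, it called 5051 between tissues, 2449 within wild type and 1857 within knockout.

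The tumor-to-spleen differences of the genotypes were compared by their interaction. None of the 7 genes was called, against 0% of all tested genes (limma), and at an unadjusted p under 0.05 there were 383 of 13897 genes and none of the 7. The largest interaction of the 7 was that of Il2ra, 0.51 (95% interval -0.02 to 1.05, unadjusted p = 0.058, adjusted p = 0.9997). For Il4ra it was -0.05 (95% interval -0.50 to 0.39).

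Knockout was compared with wild type to ask whether the receptors differ between the genotypes. FOXP3-CreYFP is named for the knockout mice only, so its effect cannot be told apart from loss of Cd177. In spleen none of the 7 genes was called, against 0% of all tested genes (limma; 281 genes at an unadjusted p under 0.05, none of them a receptor gene here). The largest difference was that of Il7r, 0.33 (95% interval -0.27 to 0.93). In tumor none of the 7 was called, against 0.0072% of all tested genes (1 gene; 634 at an unadjusted p under 0.05). Il2ra was among the 634: its mean was 6.77 ± 0.25 over 3 wild-type libraries (SD) and 7.33 ± 0.26 over 2 knockout libraries, a difference of 0.56 (95% interval 0.16 to 0.96, unadjusted p = 0.011, adjusted p = 0.9997). Both knockout libraries were above all 3 wild-type libraries. Full separation of 3 against 2 libraries, in either direction, has an exact two-sided permutation p of 0.2, so it cannot pass the threshold. The share of all tested genes separated in this way was not counted. For Il4ra the knockout differed by 0.08 in spleen (95% interval -0.21 to 0.38) and 0.03 in tumor (95% interval -0.30 to 0.37). For Il7r the upper bounds were 0.93 in spleen and 0.94 in tumor, so a change of that size was not excluded.

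**Figure D4:**
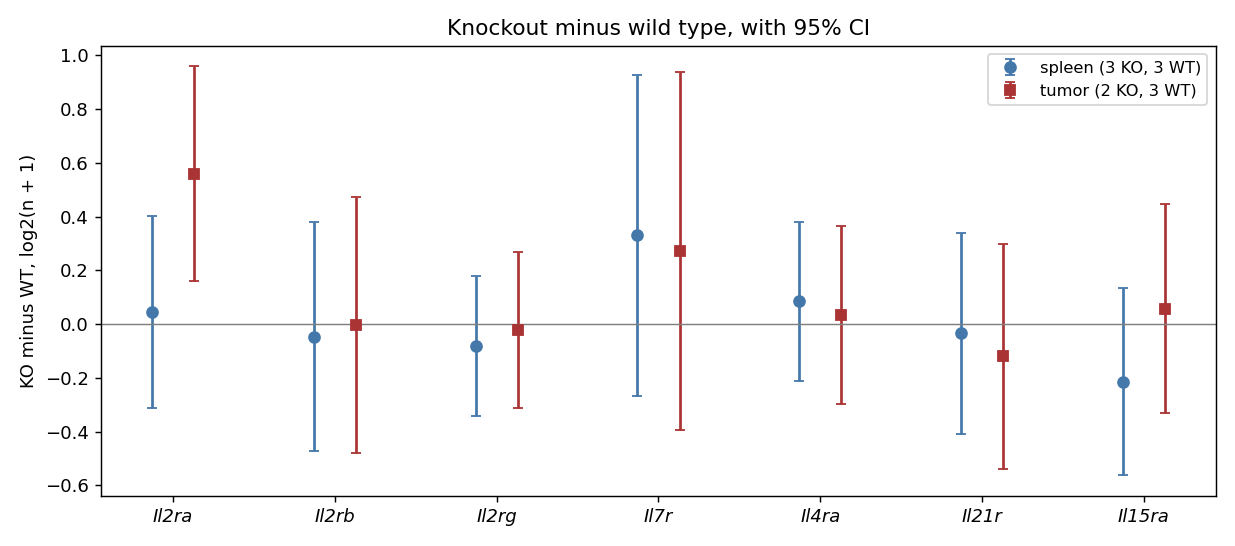
Knockout minus wild type, log2(n + 1), with 95% intervals from limma, in spleen (3 against 3 libraries) and tumor (2 against 3). All intervals include 0 except that of Il2ra in tumor (0.16 to 0.96), whose adjusted p is 0.9997.

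The other genes of the pathway were read from lists chosen by function. Of 4 other chains that join these receptors, 3 were listed and all 3 were called, against 78.9% of all tested genes. Il13ra1, the partner of IL-4Rα in the IL-13 receptor, went from 0.98 ± 0.22 to 4.84 ± 0.28, a difference of 3.86 (adjusted p = 1.36e-10, limma). Crlf2, which pairs with IL-7Rα to bind TSLP, rose by 1.49, from 5.02 ± 0.14 to 6.51 ± 0.08. Il9r, the specific chain of the IL-9 receptor, fell from 3.20 ± 0.34 to 1.78 ± 0.51, a difference of -1.42 (adjusted p = 7.66e-05, limma). Il13ra2 is not listed. The 3 directions held under all 6 scalings.

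Of 8 ligand genes, 5 were tested and 2 were called higher, against 43.1% of all tested genes. Il15 went from 0.44 ± 0.18 to 2.94 ± 0.26, and Il7 from 0.44 ± 0.23 to 1.40 ± 0.18, both without overlap. Il2 (difference 0.40, adjusted p = 0.054), Il4 (0.32, adjusted p = 0.49) and Il21 (0.09, adjusted p = 0.86, limma) were not called. Levels of all 5 were low in spleen, with means of at most 2.04.

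Of 8 JAK and STAT genes, 2 were higher, 3 lower and 3 not called (median difference -0.15, against 0.08 over all tested genes). Jak1, the kinase on the partner chains, went from 8.03 ± 0.06 to 7.13 ± 0.09, a difference of -0.90 (adjusted p = 9.68e-09, limma). Jak3, the kinase of the gamma chain, differed by -0.05 (adjusted p = 0.60). Stat3, used by the IL-21 receptor, rose by 0.90. Of the STAT5 genes, Stat5b fell by 0.28 (adjusted p = 0.037) and Stat5a differed by -0.16 (adjusted p = 0.40). Stat6, which acts after IL-4Rα, differed by -0.14 (adjusted p = 0.11, limma). The scaling changed these counts: with equal totals 7 of the 8 were called lower and none higher, and with T cell lineage centring 7 were higher and none lower.

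Of 12 genes known to respond to these cytokines, 7 were higher, 2 lower and 3 not called (median difference 0.84). Over all tested genes, 43.1% were higher and 35.9% lower, and the median was 0.08. The feedback inhibitors of the SOCS family differed among themselves: Socs3 rose by 1.79 and Cish by 0.57, while Socs1 (0.19, adjusted p = 0.058) and Socs2 (0.28, adjusted p = 0.086, limma) were not called. Of the PIM survival kinases, Pim1 rose by 1.45 and Pim2 fell by 1.19 (adjusted p = 0.041, limma). The tissues overlapped for Pim2, and its call was lost when any of 7 of the 11 libraries was left out, among them wild-type tumor replicate 1 (-0.65 without it). Osm, which encodes the cytokine oncostatin M, rose by 3.55. Prdm1, encoding the repressor BLIMP-1, went from 2.81 ± 0.35 to 5.37 ± 0.22. The survival genes of the BCL-2 family went both ways: Bcl2, which IL-2 and IL-7 are known to maintain, fell by 2.43, while Bcl2l1 rose by 2.28 and Mcl1 by 1.11, each without overlap. The rise of Cish did not hold with equal totals, where it differed by -0.06 (adjusted p = 0.73), and of the 12 genes 6 were then higher and 5 lower.

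Of 7 known regulators of Il7r, 4 were lower and none higher in tumor (median difference -0.84). The shares over all tested genes were 35.9% lower and 43.1% higher, with a median of 0.08. Foxp1 went from 7.61 ± 0.09 to 5.25 ± 0.10, and Foxo1, an activator of Il7r, from 5.69 ± 0.08 to 4.03 ± 0.26. Gfi1, a repressor of Il7r, went from 4.26 ± 0.23 to 2.91 ± 0.67. Ets1 went from 8.77 ± 0.05 to 7.93 ± 0.31. Foxo3, Gabpa and Runx1 were not called. Il7r itself differed by -0.03 in the same libraries. All 7 were lower with equal totals, quantile normalization or median centring, and with T cell lineage centring 3 were higher and 3 lower.

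Of 22 other class I cytokine receptor genes, 20 were listed and 18 tested, and 11 were higher, 4 lower and 3 not called (median difference 1.51). Csf2rb, the shared beta chain of the GM-CSF, IL-3 and IL-5 receptors, rose by 4.38. Il12rb2, of the IL-12 receptor, rose by 1.74. Il27ra fell by 1.65 and Il6ra by 1.28. The 15 called of 18 stand beside 78.9% of all tested genes. The difference from the 1 called of 7 receptor genes was not tested, and it depends on the scaling: with quantile normalization 15 of these 18 and 7 of the 7 receptor genes were called.

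**Figure D5:**
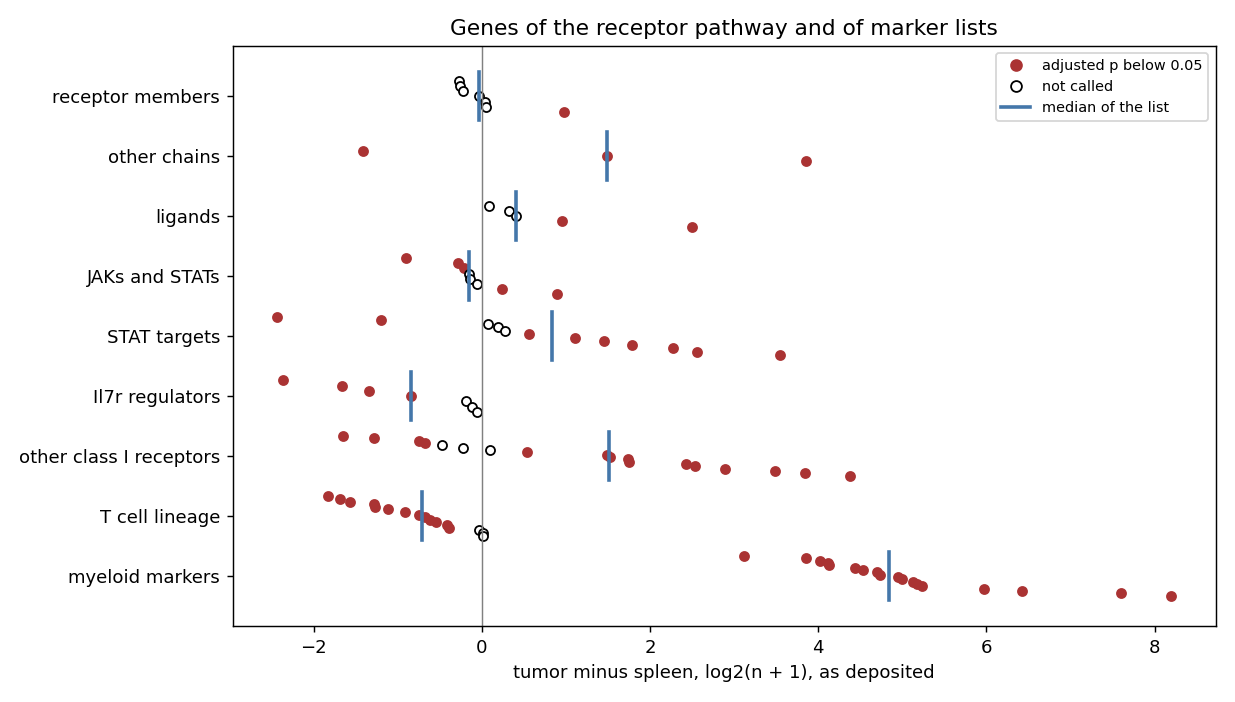
Tumor minus spleen, log2(n + 1) as deposited, for every tested gene of 9 lists; filled points passed an adjusted p of 0.05 and vertical bars mark list medians. The 7 receptor genes lie between -0.27 and 0.97, the other class I receptors have a median of 1.51, and all 18 myeloid markers lie to the right of 0.

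For each receptor gene the 3 genes nearest in pattern were found by the root mean square distance between centred log2(n + 1) values over the 11 libraries, among 8407 genes with a mean of at least 3. The gene nearest to Il21r was Il2rg (distance 0.0999), and no other nearest gene was one of the 7. Nearest to Il4ra were Iscu (0.094), Cript (0.0997) and Hspa8 (0.109). Nearest to Il2rb was the MHC class Ib gene H2-Q7 (0.085), and nearest to Il2rg was Sept9 (0.089). Nearest to Il2ra was Nudt14 (0.157), to Il15ra Slc37a3 (0.119) and to Il7r Pik3r5 (0.215), the largest distance of a nearest gene here.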

How the data were processed

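Libraries were made after depletion of ribosomal RNA and sequenced as single-end reads. The authors ran kallisto against mm10, combined estimated counts by gene symbol with sleuth 0.30.0 and deposited log2 values, log2(n + 1). The kallisto version, the annotation release and any rescaling of n were not stated in these sources. No per-sample column was left out as another sample's (0 columns).

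The 7 genes, the lists and the pairs were chosen with earlier results of these data known. Groups follow the tissue and genotype labels. Values were used as deposited. limma 3.58.1 in R 4.3.3 (eBayes with trend) was fitted to the 13897 genes whose log2(n + 1) averaged 0.5 or more, with Benjamini-Hochberg adjustment over all of them and a threshold of 0.05. The study's methods use unpaired tests with Bonferroni correction, and Bonferroni is an alternative here. Single values were tested by exact two-sided permutation (scipy 1.17.1). Named genes were the 7 members, genes of the lists and the 3 nearest genes per member, without Gm or Rik symbols. Lists held T cell lineage (16 genes), Treg (10), myeloid (18), B cell (9), CD8 T and NK (10) and fibroblast (8) genes and the pathway genes. Gene models came from GENCODE M21 and promoters from RefSeq on GRCm38.p6, the same build as mm10. The fit was tried on simulated data. Differences of 0.5 were found in 50.5% of cases between tissues but in 5.5% for the interaction. Between genotypes they were found in 25.1% in spleen and 13.4% in tumor. False calls made up 4.4% to 6.3% of all calls. Few genes were changed in the simulation, whereas most tested genes were called between tissues here.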

Additional observations from a re-analysis of the deposited data

Results flagged for a closer look

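In 100 sets of values (7 receptor genes, 34 other genes and 9 pairs, in spleen and in tumor), the library at one end was set against the others by Dixon's 95% criterion, which chance passes in about 1 of 20 sets. It was passed in 6 sets, where 5 would be passed by chance, and none was a receptor gene or a pair. Jak1 was 7.93 in wild-type spleen replicate 3, below 8.03 to 8.09 in the other spleen libraries, and Il6ra was 5.67 in the same library, below 5.90 to 5.93. Osm was 3.74 in knockout spleen replicate 2, above 3.09 to 3.31. In wild-type tumor replicate 1, Osm was 5.97 and Csf2rb 5.41, below 6.93 to 7.20 and 5.86 to 5.95. Bcl2 was 3.05 in knockout tumor replicate 2, below 3.78 to 4.05 in the other tumor libraries.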

How the results depend on the processing

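Scaling mattered most, and the cause of the changes was not tested. With quantile normalization 7 of the 7 genes were called between tumor and spleen (Il2ra -0.93, Il2rb -1.07, Il2rg -0.78, Il7r -0.54, Il21r -0.36, Il15ra -0.47), 5 within wild type and 4 within knockout. With median centring 4 were called (Il2ra -0.48, Il2rb -0.47 and Il15ra -0.44 beside Il4ra), and Il2rg was -0.18 and Il21r -0.17. With equal totals 7 were called (Il2ra -0.89, Il2rb -0.88, Il2rg -0.59, Il7r -0.65, Il21r -0.57, Il15ra -0.81), 5 within wild type and 5 within knockout. With equal totals without Gm12896, the most abundant row, a scaling added after seeing the data, 7 were called (-0.88, -0.88, -0.58, -0.65, -0.56 and -0.80 in the same order), 6 within each genotype. With T cell lineage centring 7 were called higher (0.55, 0.56, 0.86, 0.79, 0.87 and 0.59), 4 within wild type and 6 within knockout. Il2ra within knockout was then -0.66, -0.16, -0.59 and -0.54 under the first 4 scalings, and within wild type 0.31 with T cell lineage centring. The Il4ra interaction turned to 0.0095 with equal totals without Gm12896 and 0.043 with T cell lineage centring. Of the 13897 tested genes, 10984 were called between tissues with quantile normalization and 11050 with median centring. Equal totals with and without Gm12896 called 11103 and 11373, and T cell lineage centring 10849, against 10971 as deposited. With quantile normalization 9939 genes were called within wild type and 9213 within knockout. These counts were 10022 and 9488 with equal totals, 10489 and 9823 without Gm12896, and 9156 and 8953 with T cell lineage centring. Of all called genes 54.5% were higher as deposited, 42.1% with quantile normalization, 43.7% with median centring, 29.6% and 30.1% with equal totals with and without Gm12896, and 89.2% with T cell lineage centring. Among other genes, T cell lineage centring turned Jak3 to 0.76, Stat5a to 0.66, Stat5b to 0.53, Stat6 to 0.68 and Cd3e to 0.20. Equal totals with and without Gm12896 turned Cish (-0.055, -0.051), Socs1 (-0.43, -0.42), Socs2 (-0.33, -0.32) and Ctla4 (-0.056, -0.052), and quantile normalization turned Socs1 (-0.19) and Ctla4 (-0.29), as did median centring Socs1 (-0.029).

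Bonferroni correction left 0 receptor genes called within wild type and 0 within knockout, against 2449 and 1857 of all tested genes. With 1 library left out, receptor genes called between tissues ranged from 1 to 4, beside 10614 to 10978 of all tested genes. Leaving out 1 spleen or wild-type tumor library gave 1 to 3 within wild type, beside 9093 to 9802. The same fits gave 1 within knockout, beside 8257 to 9360. With any 1 library left out, calls among pairs ranged from 0 to 2, where fewer libraries raise the smallest p. The differences ranged from -0.40 to -0.15 for Il2ra, -0.34 to -0.17 for Il2rb, -0.019 to 0.11 for Il2rg, -0.17 to 0.077 for Il7r, -0.032 to 0.17 for Il21r and -0.29 to -0.18 for Il15ra. They ranged from -0.13 to 0.23 for Il2ra within knockout, -0.066 to 0.15 for Il2ra and 0.0045 to 0.19 for Il4ra between genotypes in spleen, -0.14 to 0.21 for Il4ra between genotypes in tumor, -0.22 to 0.12 for the Il4ra interaction and -0.11 to 0.011 for Jak3. For pairs they ranged from -0.057 to 0.15 (Il15ra minus Il2rb), -0.027 to 0.067 (Il21r minus Il2rg), -0.14 to 0.13 (Il2ra minus Il2rb) and -0.22 to 0.047 (Il7r minus Il2rg).

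Whether same-numbered spleen and tumor libraries share a mouse is not stated. Their deviations correlated at -0.13, 0.01 and -0.07 in wild type and 0.02 and 0.04 in knockout. This cannot decide the pairing, since tissues of a mouse need not deviate together. With the replicate block, 1 receptor gene was called between tissues, 2 within wild type and 1 within knockout, as without it. Over all tested genes the block called 10987, 9764 and 9110. The block left 0 pairs, since 5 pairs of libraries cannot go below an exact p of 0.0625, and turned Il7r minus Il2rg to 0.031. Only an approximate read depth is stated and the reads behind n are unknown, so no counting limit is given.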
